A study of Mus musculus with 2 samples.

Results

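Nanp and 6 further genes that make, cleave or remove sialic acid were followed in 46C mouse embryonic stem cells (mESCs) with and without extra polyadenylated telomeric noncoding RNA (TERRA). The genes were taken from the deposited expression table by their symbols, and they are 7 of its 18888 genes. They are Gne, Nans, Nanp and Cmas for synthesis, Npl for cleavage, and Neu1 and Neu3 for removal. Nanp was chosen by its measured FPKM ratio, which was high in PB-TERRA over PB mESCs, and the other 6 for their place in its pathway. The difference of Nanp is therefore a description and carries no test. All 7 genes passed the filter on low values, which was at least 1 FPKM (mapped fragments divided by the length of the gene and by the size of the library) in 1 library or both.

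46C is an mESC line that carries a fluorescent reporter at the neural gene Sox1. PB mESCs carried the empty PiggyBac (PB) vector, and PB-TERRA mESCs carried the same vector with telomeric repeats, from which polyadenylated TERRA was expressed. Both were at passage 21 to 24 and were kept on gelatin in mESC medium. PiggyBac inserts its cargo into the genome, and whether each line was 1 clone or a pool is not given in the sources used here. The study asked which genes respond to TERRA and sequenced 1 library per line, so there is no replicate spread, and every difference below is one between 2 libraries.

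The steps between low FPKM values of short genes gave a depth of 24725000 reads for PB and 24825000 for PB-TERRA. Reads of single genes were estimated from FPKM, gene length and this depth, and all intervals are 95% intervals that cover counting error only. All 8 mESC markers were at 49.74 FPKM or more, and their summed level was 2908.85 FPKM in PB against 2789.67 in PB-TERRA. Markers of other cells were present too. The summed level of 4 primitive endoderm markers was 3.91 FPKM in PB against 5.97 in PB-TERRA, that of 5 fibroblast markers 18.34 and 22.45, that of 3 neural markers 28.99 and 23.0, and that of 2 mesoderm markers 9.89 and 9.09. Most of the neural sum was Nes, at 27.3 and 20.93 FPKM, while Sox1, the reporter locus, was at 1.06 and 1.56. The leukocyte marker Ptprc was at 0.02 and 0.01 FPKM, and the macrophage marker Cd68 at 15.09 and 19.11. The part of such cells in the values below was not tested, and in RNA from whole cultures fewer cells of a type and less RNA per cell cannot be told apart.

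Sialic acids are acidic sugars at the outer ends of the glycans on cell-surface proteins and gangliosides. They are built in the cytosol from UDP-N-acetylglucosamine by Gne, Nans and Nanp in turn, activated in the nucleus by Cmas, carried into the Golgi and attached there by sialyltransferases. Sialidases take them off again, and Npl splits free sialic acid into an amino sugar and pyruvate. Nanp is the phosphatase that removes the phosphate from N-acetylneuraminate-9-phosphate and so releases free sialic acid.

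Nanp was found on the minus strand of chromosome 2 at chr2:151029685-151039398 in the GENCODE M21 annotation of GRCm38, with 2 exons of 162 and 1232 bases. The deposited values were made on mm9, so these positions serve only to place the gene. Its protein-coding transcript holds 1345 stretches of 50 bases, and 754 of them (56.1%) also occur in a transcript of another gene. Gm6741, a processed pseudogene at chr17:91236811-91237557 on the plus strand, accounts for 698 (51.9%). Its 747 annotated bases are the 747 coding bases of Nanp with 0 differences. A transcript of the neighbouring gene Ninl holds 97 (7.21%), in exon 1, and some of these are also in Gm6741. The remaining 591 stretches (43.9%) lie in no other GENCODE M21 transcript. RefSeq gives Gm6741 a length of 1342 bases, and those beyond the 747 were not compared. The stretch below spans the exon junction of Nanp, with the last base of exon 1 and the first base of exon 2 in capitals, and is shown because a spliced Nanp transcript and the pseudogene read the same there. In Nanp its parts lie at chr2:151039237-151039296 and chr2:151030857-151030916 on the minus strand, and in Gm6741 it is unbroken at chr17:91236841-91236960 on the plus strand.
Nanp: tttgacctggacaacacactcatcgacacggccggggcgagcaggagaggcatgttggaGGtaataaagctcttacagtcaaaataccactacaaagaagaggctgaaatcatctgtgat
Gm6741: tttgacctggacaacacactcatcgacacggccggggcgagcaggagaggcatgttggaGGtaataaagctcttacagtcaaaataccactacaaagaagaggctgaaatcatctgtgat

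Among the other members such sharing was rare. Gne, Nans, Cmas, Npl and Neu1 had 0 shared stretches, and Neu3 had 36 of 3292 (1.09%), spread over transcripts of 126 genes. No gene of the deposited expression table carried the identifier of Gm6741, so it had no value under its own name to analyse.

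Nanp was at 0.53 FPKM in PB (interval 0.309 to 0.849) and at 3.16 FPKM in PB-TERRA (interval 2.57 to 3.84). The estimated reads were 17 and 101, from 16.9 and 101.3 before rounding. The level in PB-TERRA was thus 5.96 times that in PB. The intervals of the levels did not overlap, but Nanp was chosen for this difference, so they add no support. On the scale of FPKM + 0.1 the log2 ratio was 2.37, the 18th highest of the 12263 genes past the filter, and the log2 ratio of the reads was 2.56 (interval 1.81 to 3.40). Of all genes past the filter, 0.44% had a log2 ratio of at least 1 with the higher value in PB-TERRA. Nanp is 1 of the 7 members with such a ratio, which follows from its choice. In PB only 0.236% of the genes past the filter had a lower FPKM than Nanp, and in PB-TERRA it was 19.7%. Nanp passed the filter through PB-TERRA alone, and the filter itself keeps the first of these shares low.

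**Figure D1:**
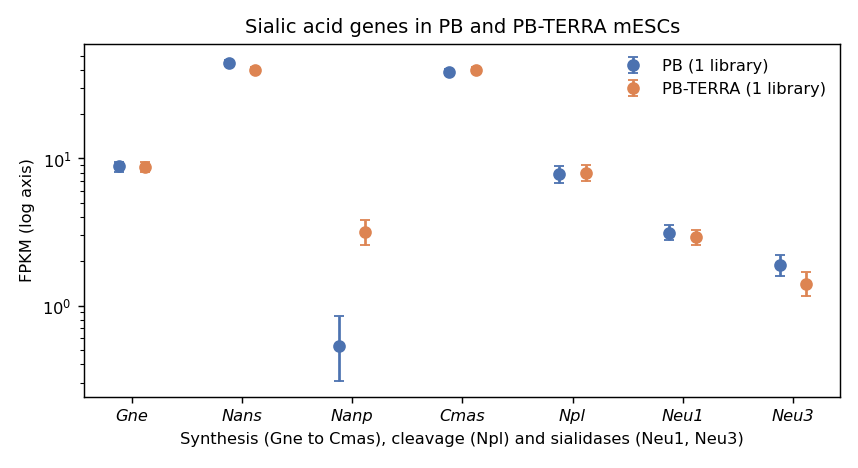
Level of each sialic acid gene in FPKM (log axis) in the PB library and the PB-TERRA library, with 95% counting intervals as bars. Nanp moves from the lowest level of the 7 in PB, 0.53 FPKM, to 3.16 FPKM in PB-TERRA, next to Neu1 at 2.91, while Gne, Nans, Cmas, Npl and Neu1 stay close between the libraries.

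The table holds a further gene model annotated as N-acylneuraminate-9-phosphatase. This model, BGI_novel_G000394, was predicted by the authors, carries no symbol, has a length of 1334 bases against 1404 for Nanp, and names the same mouse protein. It was at 12.48 FPKM in PB (interval 11.3 to 13.8) and at 8.06 FPKM in PB-TERRA (interval 7.08 to 9.14), with 377 and 244 estimated reads. Its difference thus went the other way, with a log2 ratio of -0.62 on the scale of FPKM + 0.1 and of -0.63 for the reads (interval -0.87 to -0.40). In both libraries it was the more abundant of the 2 models.

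Nanp had 84 more reads in PB-TERRA than in PB, and BGI_novel_G000394 had 133 fewer. Summed over both models the reads were 394 in PB against 345 in PB-TERRA, a log2 ratio of -0.20 whose interval, -0.41 to 0.01, included 0. The summed level was 13.01 FPKM in PB against 11.22 in PB-TERRA, a log2 ratio of -0.21 on the scale of FPKM + 0.1. The higher value of Nanp was therefore not present in the sum, a comparison chosen after the data were seen. The predicted model held most of the summed reads in both libraries. The sum thus mainly follows that model and cannot decide whether Nanp itself differed. Nanp held 4.31% of the summed reads in PB (exact binomial interval 2.53% to 6.82%) and 29.3% in PB-TERRA (24.5% to 34.4%). The table gives neither a position nor a sequence for BGI_novel_G000394, so whether it is the copy Gm6741 was not tested. How reads that match Nanp and another gene equally well were assigned is not given in the sources used here. The single value of Nanp is uncertain, since most of its 50-base stretches also occur in Gm6741.

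**Figure D2:**
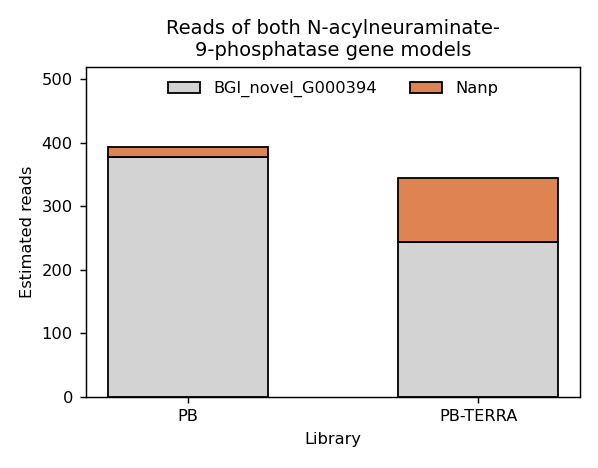
Estimated reads of Nanp and of BGI_novel_G000394, the predicted model of the same protein, stacked for the PB and the PB-TERRA library. The stacks reach 394 and 345 reads, and the Nanp part grows from 17 to 101 reads while the predicted model goes from 377 to 244.

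A predicted model of the same protein was listed for Nanp alone among the 7 members. The other 6 had 0 such models, and 0 other genes shared their KEGG orthology entry. Over the whole table, 146 named genes past the filter had a predicted model of the same protein. Of these 1 gene had a log2 ratio at or beyond 1 in either direction, and it is Nanp, which was chosen for that ratio, so nothing is read from this count.

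The other synthesis genes were more abundant than Nanp by itself and differed little. Counted with the predicted model, at 13.01 FPKM in PB and 11.22 in PB-TERRA, Nanp stood above Gne. Gne, the bifunctional epimerase and kinase that starts the pathway and is its feedback-controlled step, was at 8.82 FPKM in PB against 8.69 in PB-TERRA. Its reads were 646 and 639, and their log2 ratio of -0.02 had an interval from -0.18 to 0.14. With FPKM rescaled to the same sum in both libraries, its log2 ratio was 0.02, so no direction can be given for Gne, and 4 in place of 3 of the 7 members were then higher in PB-TERRA.

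Nans, the synthase that joins the phosphorylated amino sugar to phosphoenolpyruvate, was at 44.64 FPKM in PB against 39.75 in PB-TERRA, from 1977 and 1767 reads. The log2 ratio was -0.17, with an interval of -0.26 to -0.07 that lay below 0. Of all genes past the filter, 17.6% had an interval below 0 and 18.1% one above 0, so such an interval is common between these libraries. Cmas, which activates sialic acid with CTP, was at 38.69 and 39.75 FPKM, from 1576 and 1625 reads, with a log2 ratio of 0.04 (interval -0.06 to 0.14). The steps before and after Nanp thus lay within 0.17 of 0 on the log2 scale.

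Npl, the lyase, had 7.8 FPKM in PB against 7.94 in PB-TERRA. Its 249 and 254 reads gave a log2 ratio of 0.02 for the reads, with an interval of -0.24 to 0.28. Neu1, the lysosomal sialidase, had 3.13 and 2.91 FPKM, and its 289 and 270 reads gave a log2 ratio of -0.10 (interval -0.35 to 0.14). The interval of each of these genes included 0.

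Neu3, the sialidase of the plasma membrane that acts on gangliosides, was at 1.89 FPKM in PB against 1.41 in PB-TERRA, with 151 and 113 reads. On the scale of FPKM + 0.1 its log2 ratio was -0.40, and that of the reads was -0.42, with an interval of -0.79 to -0.06 below 0. The intervals of its levels, 1.6 to 2.22 FPKM and 1.16 to 1.7 FPKM, overlapped. Of the 7 members, 1 had an interval above 0 (Nanp), 2 had one below 0 (Nans and Neu3), and 4 had one that included 0. The background shares are the 18.1% and 17.6% given above. Nanp was chosen for its high ratio, so its interval is not read against them. None of the 7 members had a log2 ratio of -1 or less (0 genes), as against 0.473% of all genes past the filter.

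**Figure D3:**
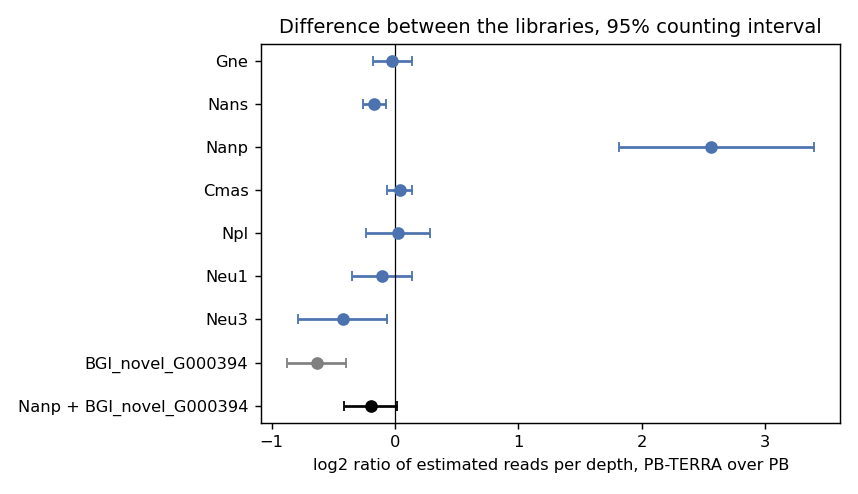
Log2 ratio of estimated reads per depth, PB-TERRA over PB, for the 7 sialic acid genes, for the predicted model BGI_novel_G000394 and for Nanp summed with it, with 95% counting intervals as bars. Nanp stands apart at 2.56, the predicted model lies at -0.63, and their sum at -0.20 includes 0 like Gne, Cmas, Npl and Neu1.

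The order of the levels, which FPKM allows because it is scaled to gene length, was Nans, Cmas, Gne, Npl, Neu1, Neu3 and Nanp in PB. Only Gne and Npl were neighbours that did not differ beyond counting error, with a ratio of 1.13 (interval 0.974 to 1.31). Nans was 1.15 times Cmas (interval 1.08 to 1.23), and Neu3 was 3.57 times Nanp (interval 2.15 to 6.26). In PB-TERRA the order was the same except that Nanp stood between Npl and Neu1. Nans and Cmas had the same level of 39.75 FPKM there, and Nanp was 1.09 times Neu1 with an interval that included 1 (0.853 to 1.37). Gne and Npl again did not differ beyond counting error (ratio 1.09, interval 0.946 to 1.27). If the predicted model is counted with Nanp, the level of 13.01 FPKM in PB against 11.22 in PB-TERRA places it between Cmas and Gne in both libraries.

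**Figure D4:**
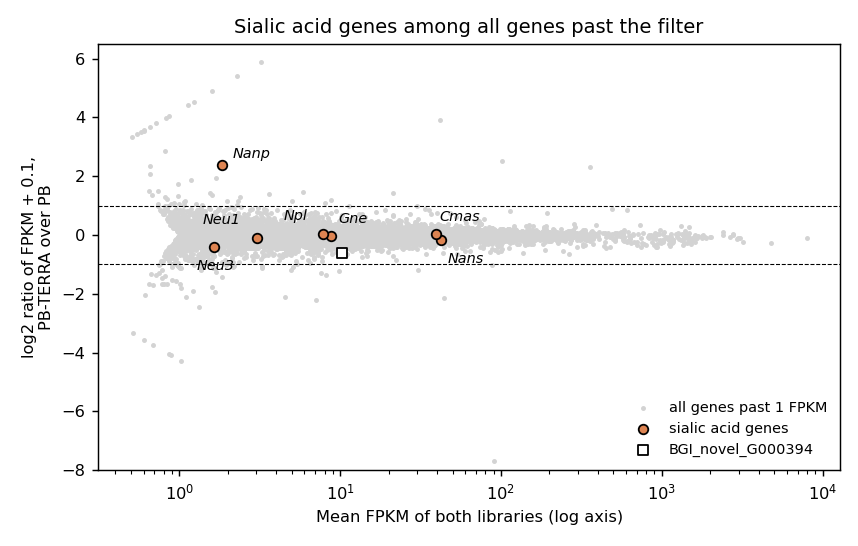
Log2 ratio of FPKM + 0.1, PB-TERRA over PB, against the mean FPKM of both libraries (log axis) for the 12263 genes past 1 FPKM in grey, with the 7 sialic acid genes as filled circles and BGI_novel_G000394 as a square. The dashed lines mark a log2 ratio of 1 in either direction, and Nanp at 2.37 is the only sialic acid gene beyond them.

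The genes around the 7 members were taken from 6 lists of sialic acid metabolism, with 48 of 51 listed genes analysed. St6galnac1, Neu2 and Neu4 were not analysed here. Past the filter were 32 of these genes, 14 higher and 18 lower in PB-TERRA, with a median log2 ratio of -0.06 beside -0.0044 for all genes past the filter. The median was 0.0189 with no filter, so it has no firm direction. A log2 ratio at or beyond 1 in either direction was found for 0 of the 32, and for 0.913% of all genes past the filter. The interval lay above 0 for 4 of them and below 0 for 8, beside 18.1% and 17.6% of all genes past the filter.

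Of the enzymes that supply the amino sugar, all 9 passed the filter, 4 of them higher and 5 lower. Gfpt2, which makes glucosamine-6-phosphate, had the highest log2 ratio, 0.11, from 35.64 FPKM in PB against 38.41 in PB-TERRA. Its interval, 0.03 to 0.19, lay above 0. Uap1l1, a homologue of the enzyme that makes UDP-N-acetylglucosamine, had the lowest, -0.55, from 16.06 and 10.92 FPKM with 626 and 428 reads. Uap1 itself was at 13.42 and 11.58 FPKM (log2 ratio -0.21), and its interval lay below 0 as well. Renbp, which acts on the same amino sugars, was the third gene of the list with an interval below 0, at 19.56 and 17.0 FPKM. Such intervals were found for 3 of the 9 genes, beside 17.6% of all genes past the filter. An interval above 0 was found for 1 of the 9, beside 18.1%.

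Cmah was by far the most abundant of all these genes. It encodes the hydroxylase that turns CMP-N-acetylneuraminate into the N-glycolyl form, and its level was 169.63 FPKM in PB against 201.95 in PB-TERRA. With 38380 and 45878 reads its log2 ratio of 0.25 had a narrow interval, 0.23 to 0.27. Of the 5 carriers and modifying enzymes it was the only gene with an interval on 1 side of 0, which 35.7% of all genes past the filter had. Slc35a1, which carries CMP-sialic acid into the Golgi, had the lowest log2 ratio of the list, -0.09 (11.93 and 11.19 FPKM), and Slc17a5, which exports sialic acid from lysosomes, was at 1.97 and 2.03 FPKM.

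Of the sialyltransferases 19 were analysed, and 11 passed the filter, with 3 higher and 8 lower. With FPKM rescaled to the same sum in both libraries the split was 4 and 7. Of all genes past the filter, 5962 were higher and 6244 lower. The interval lay above 0 for 1 of the 11 and below 0 for 2, beside 18.1% and 17.6% of all genes past the filter. None of the sialyltransferases was abundant, and the highest level was 7.37 FPKM, of St6galnac6 in PB-TERRA. Among the 11 past the filter, the 3 highest log2 ratios were those of St8sia1, St3gal3 and St6galnac6. St8sia1, the GD3 synthase, was at 0.22 (1.29 and 1.52 FPKM), St3gal3 at 0.07 and St6galnac6 at 0.01. Only St8sia1 of these had an interval above 0. The 3 lowest of the 11 were those of St6gal2, St8sia6 and St3gal5. St6gal2, an alpha-2,6-sialyltransferase, was at 1.7 FPKM in PB against 0.99 in PB-TERRA, with 231 and 135 reads and a log2 ratio of -0.72. St8sia6 was at 1.08 and 0.66 FPKM (log2 ratio -0.63), and the intervals of both lay below 0. Both passed the filter through PB alone. St3gal5, the GM3 synthase, was at 4.05 and 3.48 FPKM (log2 ratio -0.21), and its interval included 0.

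Ctsa and Glb1, whose products form a lysosomal complex with Neu1, were both lower in PB-TERRA with intervals below 0, as were 17.6% of all genes past the filter. Ctsa, the protective protein of the complex, was at 20.62 FPKM in PB against 16.39 in PB-TERRA (log2 ratio -0.33), and Glb1, the beta-galactosidase, at 13.16 and 11.64 (log2 ratio -0.18). Neu1 itself had a log2 ratio of -0.10 with an interval that included 0. Of the 5 enzymes that build the ganglioside core, B4galt6 was highest at 0.18 (19.88 and 22.49 FPKM) and B4galnt1, the GM2 and GD2 synthase, lowest at -0.34 (5.73 and 4.5 FPKM). The 8 lectins that bind sialic acid did not pass the filter (0 of 8), and the highest level among them was 0.52 FPKM, of Siglecf in PB.

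**Figure D5:**
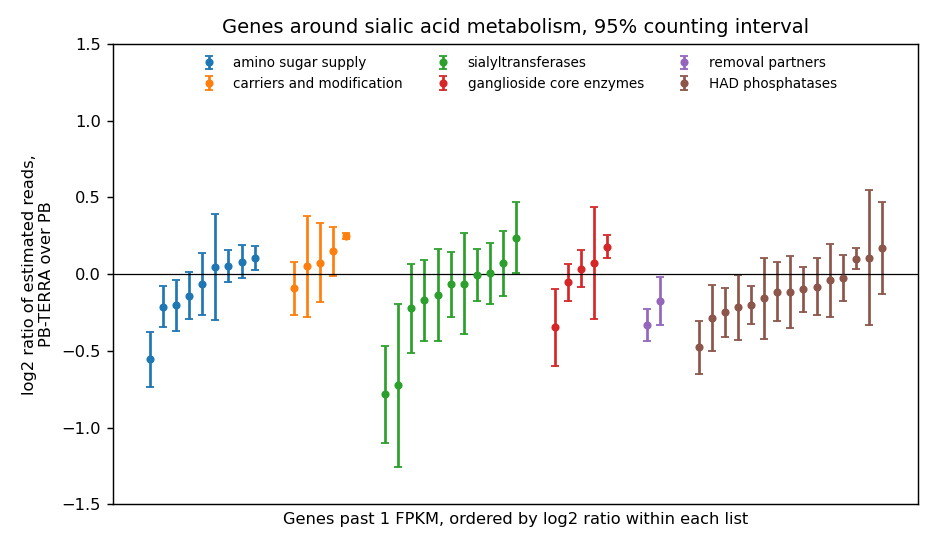
Log2 ratio of estimated reads, PB-TERRA over PB, for the genes of 5 sialic acid lists and of the HAD phosphatases that passed 1 FPKM, ordered within each list, with 95% counting intervals as bars. All points lie between -1 and 1, from St6gal2 at -0.78 to Cmah at 0.25, and Cmah has the narrowest interval.

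Nanp belongs to the haloacid dehalogenase (HAD) superfamily of phosphatases, and 16 other HAD members were listed for comparison. Past the filter were 15 of them, 3 higher and 12 lower, with a median log2 ratio of -0.11, beside 5962 higher and 6244 lower of all genes past the filter. A log2 ratio at or beyond 1 in either direction was found for 0 of the 15, against 0.913% of all genes, so a count of 0 is near the background. The interval lay above 0 for 1 of the 15 and below 0 for 5, beside 18.1% and 17.6% of all genes. Lhpp was highest at 0.17 (4.84 and 5.45 FPKM), and Pgp, the phosphoglycolate phosphatase, was lowest at -0.48 (28.44 and 20.41 FPKM, 650 and 469 reads).

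The genes next to Nanp on chromosome 2 had smaller log2 ratios than Nanp, as did nearly all genes past the filter. Nanp was chosen for its high ratio, so nothing is read from this comparison. The 5 nearest genes of the table on either side, in the order of RefSeq on GRCm38.p6, were Entpd6, Pygb, Abhd12, Gins1 and Ninl, and Gm14151, 4921509C19Rik, Nsfl1c, Fkbp1a and Sdcbp2. Gm14151 and 4921509C19Rik had at most 5 reads in either library and did not pass the filter. The log2 ratios of the other 8 ran from -0.18 in Pygb to 0.40 in Sdcbp2, which had 31 and 42 reads. Ninl, the closest on one side and the gene that shares exon 1 stretches with Nanp, was at 5.08 and 4.99 FPKM, from 585 and 577 reads (log2 ratio -0.03). Of these 8 genes, 0 had a log2 ratio at or beyond 1 in either direction, which is near the background of 0.913%.

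Likeness to Nanp was measured as the distance between log2 ratios of FPKM + 0.1 over both libraries, among 11747 named genes past the filter with at least 20 reads in 1 library. The closest gene was Chml, with 0.15 FPKM in PB against 1.16 in PB-TERRA (log2 ratio 2.33, 22 and 173 reads). It was followed by Gm3417 (log2 ratio 1.88), Ngb (1.51), Gm11837 (1.43) and Bc1 (1.43), none of them a gene of the lists above. All of these but Bc1 passed the filter through PB-TERRA alone. The genes nearest to Nanp in PB level were Psca, Lrrc9, Pdgfra, Ptgs2 and Lrrc46, at 0.51 to 0.56 FPKM. Their log2 ratios ran from 0.84 to 1.0, and the filter admitted them only through their level in PB-TERRA, so these values had to be above 0.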

How the data were processed

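The authors deposited 1 table with an expression value per gene for PB and for PB-TERRA mESCs. Its header names no unit. The values were read as FPKM, made by the authors with HISAT and Cufflinks on mm9 per the submitters' processing notes, rounded to 2 decimals with a floor of 0.01. The annotation is not given in the sources used here. The authors' columns of fold changes, p-values and adjusted p-values were not used.

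Each gene was compared as log2((PB-TERRA FPKM + 0.1) / (PB FPKM + 0.1)), a scale on which differences of low genes come out too small. Genes with at least 1 FPKM in 1 library passed the filter, and the threshold was a log2 ratio of 1 in either direction. No test was made, because each group has 1 library. Reads are FPKM times length less 113 bases times depth. Both were chosen so that FPKM between 0.01 and 2 of genes of 250 to 700 bases (383 in PB, 413 in PB-TERRA) lay nearest to whole reads. The fit was partial, with a mean cosine (highest when all values fall on whole reads) of 0.638 in PB and 0.706 in PB-TERRA. Why 113 bases must come off is not known. The reads so estimated add up to 24742331 (PB) and 24832785 (PB-TERRA). A value at 0.01 was taken as 0 reads. Intervals are exact binomial (Clopper-Pearson) for ratios and exact Poisson for levels. The method was also run on data simulated with the same formula, which cannot show whether the deposited values follow that formula.

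The members and lists were chosen with earlier results of these data known. Named are the 7 members, the extremes of each list, the 5 nearest genes on each side of Nanp and the 5 genes most like it in log2 ratio and in PB level. Uap1, Renbp, Slc17a5 and BGI_novel_G000394 were named after their values were seen. Stretches of 50 bases were compared over GENCODE M21 transcripts on both strands. Intervals came from scipy 1.17.1 and figures from matplotlib 3.10.9, under Python 3.11.15 with pandas 2.3.3 and numpy 2.4.6.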

Additional observations from a re-analysis of the deposited data

How the results depend on the processing

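Counting Nanp together with the predicted model of the same protein was an alternative chosen after the data were seen. It turned the log2 ratio from 2.37 to -0.21 and left 0 members with a log2 ratio of at least 1. It also left 2 in place of 3 members with an interval on 1 side of 0. The predicted model held most of the summed reads, so this alternative cannot decide whether Nanp itself differed. With 1 FPKM added the log2 ratio of Nanp was 1.44. With a mean of at least 5 FPKM as the filter Nanp, Neu1 and Neu3 dropped out, and 0 members had a log2 ratio of at least 1. Under the other pseudocount, no filter, both scalings and the correction for gene length it lay between 2.37 and 2.55. The median log2 ratio of the sialic acid lists was -0.06, against 0.0189 with no filter, -0.0286 with a mean of at least 5 FPKM and -0.0189 with FPKM rescaled to the same sum in both libraries (TPM). Over the other 6 members, 40 of 40 values under the alternatives moved by less than counting error and lay between -0.42 and 0.09. A changed filter does not alter the ratio of a gene, so part of this count was fixed in advance. With the full gene length, or a depth 10% lower or higher, the number of members with an interval on 1 side of 0 was 3 each time. No paired analysis was possible because each group has 1 library, and for the same reason no replicate could be left out. What depth limits is the level of Nanp in PB, which rests on 17 reads.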
